A study of Drosophila melanogaster with 80 samples.

Results

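The 7 genes described here encode immune peptides of Drosophila melanogaster: Def (defensin), Mtk (metchnikowin), Drs (drosomycin), Drsl2 (a drosomycin-like peptide), DptB (a diptericin), AttD (an attacin) and BomT2 (a Bomanin). Each was read from 1 probe set, a group of short probes on the array, that carries 1 gene symbol. They are 7 of the 11981 genes that could be measured this way. The probe sets were 1634271_at (Def), 1627613_at (Mtk), 1635189_at (Drs), 1629230_at (Drsl2), 1638235_at (DptB), 1631475_at (AttD) and 1623669_at (BomT2).

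Antimicrobial peptides are made mainly by the fat body, the insect counterpart of liver and adipose tissue, and by epithelia such as the gut, and many are released into the blood after infection. Their genes are switched on by the Toll pathway, best known for responses to fungi and Gram-positive bacteria, and by the Imd pathway, which answers to the peptidoglycan of Gram-negative bacteria. Drs and the Bomanins are classical Toll outputs, diptericins and attacins are classical Imd outputs, and Def and Mtk can take input from both. The Bomanins are short peptides needed for much of the resistance that Toll signalling gives.

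Whole adult Oregon R flies, a common wild-type stock, were kept as virgin females or unmated males at 30 flies per vial and 25 °C on a high-sucrose diet (HSD, 1 M sucrose) or a control diet (CD, 0.15 M sucrose) for 14 days. RNA was hybridised to 80 Affymetrix Drosophila Genome 2.0 arrays, 4 in each of 20 groups. In the F0 generation the groups were HSD males, CD males, HSD females and CD females. In F1 and F2 each sex was fed HSD or CD and was derived from F0 males fed HSD or from F0 males fed CD, called HSD ancestry and CD ancestry below, which gives 8 groups per generation. The diet of the F1 flies that bred the F2 is not in the labels, nor is it stated that replicate arrays hold RNA of separate vials. The p-values then reflect no more than the spread between arrays, which may be technical. No infection or other immune challenge is named in the labels.

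The deposited values are log2 signals that were normalized separately in 10 sets of 8 arrays, with array medians between 5.16 and 7.34. Each set holds 1 sex and, in F1 and F2, 1 own diet, so ancestry is compared within a set while own diet in F1 and F2 cannot be told apart from the batch label. Of the 80 arrays, 6 held transcripts of the opposite sex past a threshold of 0.5 log2 units, all of HSD ancestry. They were replicates 1 and 4 of the F1 CD-fed males, replicate 1 of the F1 HSD-fed females and replicates 1, 2 and 4 of the F2 HSD-fed males, with a mean of sex-limited transcripts 0.59 to 0.89 log2 units above the lowest array of their set. Arrays of CD ancestry reached up to 0.39 (F1 HSD-fed male replicate 4) and 0.38 (F1 HSD-fed female replicate 1), and F2 HSD-fed male of HSD ancestry replicate 3 stood at 0.38, all under the threshold. For the 7 genes, results that rest on these arrays are given with and without them. Changes of other named genes and of markers are given with these arrays only.

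All 7 genes passed the filter on dim genes in each of the 15 comparisons. The mean log2 signal of a gene over the 20 groups spanned 3.37 log2 units for DptB, 3.16 for Def, 3.06 for Mtk, 2.68 for BomT2, 2.48 for AttD, 1.81 for Drs and 1.40 for Drsl2. Def was highest at 10.75 ± 0.08 in CD-fed F1 females of HSD ancestry and lowest at 7.59 ± 0.30 in HSD F0 males (SD, n = 4 each). Mtk (11.33), DptB (11.22), AttD (7.07) and BomT2 (12.51) were all highest in CD-fed F2 males of CD ancestry. The lowest means of Mtk (8.27), DptB (7.84) and AttD (4.59) were in HSD F0 males, and that of BomT2 (9.83) was in HSD-fed F2 females of CD ancestry. Drs ran from 13.44 in CD-fed F1 females of HSD ancestry down to 11.63 in HSD-fed F2 males of HSD ancestry. Drsl2 was highest at 6.39 in HSD-fed F1 females of CD ancestry and lowest at 5.0 in CD F0 males. With the 20 groups placed in order of level, neighbours overlapped in 19 of 19 steps for AttD, 18 for Mtk, Drsl2 and DptB, 17 for Def, 16 for BomT2 and 14 for Drs. These orders run across separately normalized sets and are descriptions only, and signals of different probe sets were not set against each other.

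**Figure D1:**
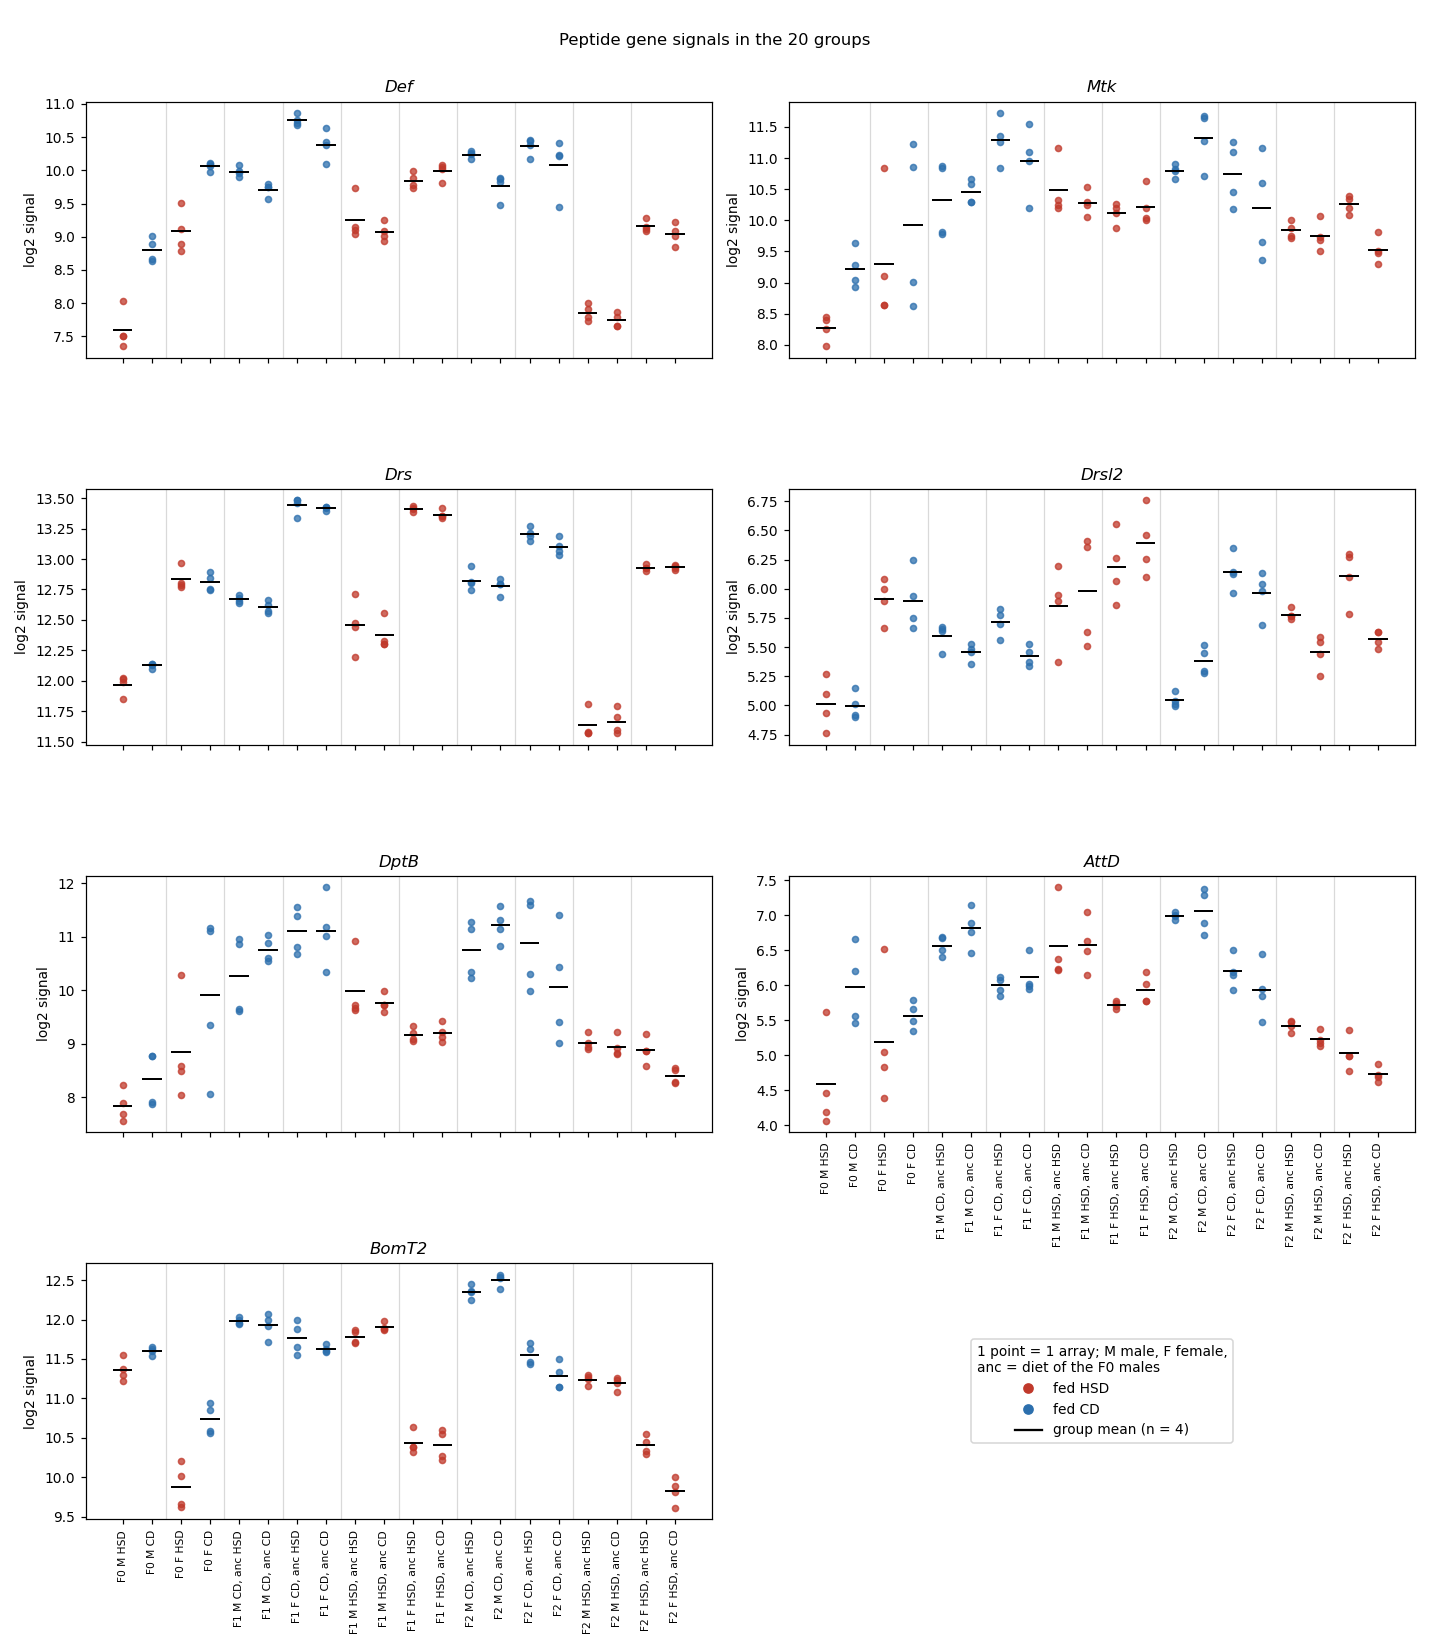
Log2 signal (vertical axis) of each of the 7 peptide genes in the 20 groups (horizontal axis), 1 point per array, red for flies fed HSD and blue for flies fed CD, with a bar at the group mean (n = 4). M and F are males and females, and anc is the diet of the F0 males. Mtk and DptB scatter most within groups, and Def lies lower in the HSD-fed group than in the CD-fed group in every pair that shares generation, sex and ancestry.

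The first question was how the flies' own diet bore on these genes in F0. In F0 males, 5 of the 7 genes fell on HSD and 0 rose, where 30.5% of all 10983 genes tested passed in either direction and 11% passed as lower. The 5 were Def, Mtk, AttD, BomT2 and Drs. The median log2 change of the 7 was -0.49, against 0.01 over all genes tested. Def, Mtk and Drs, 3 of the 7, did not overlap between the diets, where 32.5% of genes did not.

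Def, a peptide active mainly against Gram-positive bacteria, had log2 signals of 7.50, 7.35, 8.02 and 7.50 in HSD F0 males, against 9.01, 8.89, 8.63 and 8.67 in CD F0 males. Every HSD array lay below every CD array. The log2 change was -1.21 (SE 0.14, limma adjusted p = 0.000229), a 2.31-fold lower signal. Mtk, a proline-rich peptide active against fungi and Gram-positive bacteria, had 8.26, 7.98, 8.44 and 8.39 in HSD F0 males, against 9.64, 9.29, 9.04 and 8.93 in CD F0 males. The diets did not overlap, and the signal was 1.94-fold lower (log2 change -0.96, SE 0.15, adjusted p = 0.00154). Both falls passed under each alternative run.

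AttD, a member of the attacin family, had log2 signals of 4.20, 4.07, 5.62 and 4.47 in HSD F0 males, against 6.66, 6.21, 5.56 and 5.46 in CD F0 males. Its log2 change of -1.38 was the furthest from 0 of the 7 but also had the largest SE (0.36, adjusted p = 0.0156), since HSD replicate 3 lay above CD replicates 3 and 4. AttD lay low on the array in HSD F0 males, at the 15th percentile of genes, and with no detection call in the files used here it is not known whether such a signal stood above background. The same HSD replicate 3 was the highest HSD array for Def, Mtk, Drs, Drsl2 and DptB as well. DptB, an Imd-driven peptide active against Gram-negative bacteria, read 7.68, 7.57, 8.24 and 7.90 in HSD F0 males, against 8.78, 8.77, 7.88 and 7.92 in CD F0 males. The groups overlapped, and its log2 change of -0.49 (SE 0.23) did not pass (adjusted p = 0.143).

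Drs, an antifungal peptide and the usual readout of Toll signalling, had log2 signals of 11.99, 11.85, 12.02 and 12.01 in HSD F0 males, against 12.14, 12.10, 12.13 and 12.14 in CD F0 males. The gap was small but the arrays lay close together and did not overlap, for a change of -0.16 (SE 0.05, adjusted p = 0.0245). Without CD replicate 1, 3 or 4 the change stayed between -0.16 and -0.15, with an adjusted p of up to 0.0637, and no longer passed. BomT2 had 11.54, 11.37, 11.30 and 11.22 in HSD F0 males, against 11.65, 11.63, 11.61 and 11.53 in CD F0 males. HSD replicate 1 just overlapped the CD arrays, and the log2 change was -0.25 (SE 0.07, adjusted p = 0.0176). Drsl2 had a log2 change of 0.02 (SE 0.10), with a 95% interval from -0.21 to 0.25.

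In F0 females, 2 of the 7 genes fell on HSD, Def and BomT2, and 0 rose, where 41.3% of all 10261 genes tested passed and 18.2% passed as lower. Def had log2 signals of 8.89, 9.51, 9.12 and 8.79 in HSD F0 females, against 10.10, 10.06, 9.98 and 10.10 in CD F0 females. The diets did not overlap, where 41.4% of genes did not (log2 change -0.98, SE 0.14, adjusted p = 0.000423), and the HSD arrays spread more widely than the CD arrays. BomT2 had 10.01, 10.20, 9.66 and 9.63 in HSD F0 females, against 10.56, 10.94, 10.59 and 10.85 in CD F0 females. These did not overlap either. The fall was 0.86 log2 units, or 1.81-fold (log2 change -0.86, SE 0.14, adjusted p = 0.00112).

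Mtk and DptB split the F0 females by array rather than by diet. Mtk had log2 signals of 9.10, 10.84, 8.63 and 8.65 in HSD F0 females, against 10.85, 9.02, 8.62 and 11.23 in CD F0 females. DptB had 8.59, 10.27, 8.49 and 8.04 in HSD F0 females, against 11.16, 9.34, 8.06 and 11.10 in CD F0 females. For both genes CD replicates 1 and 4 and HSD replicate 2 were the 3 highest arrays. The SD of DptB was 0.98 in HSD F0 females and 1.5 in CD F0 females. Neither the log2 change of DptB (-1.07, SE 0.73, adjusted p = 0.274) nor that of Mtk (-0.62, SE 0.68, adjusted p = 0.504) passed, and their 95% intervals, from -2.71 to 0.57 and from -2.15 to 0.91, allow both a large fall and a rise.

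AttD did not pass in F0 females (log2 change -0.37, SE 0.38), and its highest array was HSD replicate 2 again, at 6.52. Without that array its change was -0.81 (SE 0.16, adjusted p = 0.00476) and passed. Each array was left out in turn. A call gained this way, here and below, was picked out after the runs, so its adjusted p is a description only. Drs had a log2 change of 0.02 (SE 0.06) in females, with a 95% interval from -0.11 to 0.15. That of Drsl2 was 0.01 (SE 0.13), with an interval from -0.29 to 0.31. The median log2 change of the 7 genes was -0.62 in females, against 0.02 over all genes tested.

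The change on HSD was also compared between the sexes, as the change in females minus the change in males. BomT2 was the 1 gene of 7 whose changes differed, where 30.3% of 11375 genes did. It fell by 0.61 log2 units more in females than in males (difference -0.61, SE 0.16, adjusted p = 0.0107). The difference passed under each of 21 alternatives. For Def the difference was 0.23 (SE 0.21, adjusted p = 0.448), with a 95% interval from -0.22 to 0.67. Drs, which passed in males and not in females, had a difference of 0.18 (SE 0.07) that did not pass (adjusted p = 0.0767). The same holds for Mtk and AttD, whose differences of 0.33 (SE 0.75) and 1.01 (SE 0.57) came with wide intervals, so a fall in males alone was not shown for any of the 3.

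**Figure D2:**
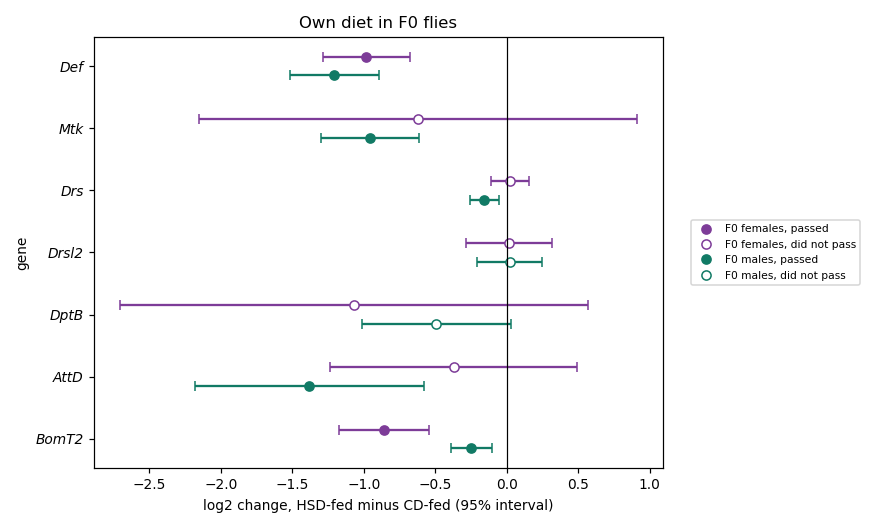
Log2 change on HSD relative to CD (horizontal axis, with 95% intervals) of the 7 peptide genes (vertical axis) in F0 females (purple, above) and F0 males (green, below), 4 arrays per diet. Filled points passed an adjusted p of 0.05. Def lies near -1 in both sexes, BomT2 lies further from 0 in females, and the intervals of Mtk, DptB and AttD are widest in females.

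Other antimicrobial and Bomanin peptide genes moved the same way more often than the opposite way in F0. Of 16 tested in males 8 fell and 1 rose, with a median log2 change of -0.15, where 11% of all genes fell and 19.5% rose. Listericin, an antibacterial peptide, had -0.73 (SE 0.08, adjusted p = 0.000146), the drosomycin-like Drsl5 had -0.67 and the Bomanin BomBc2 had -0.38, while the Bomanin BomBc3 rose by 0.34 (SE 0.06). Of 16 tested in females 7 fell and 0 rose, with a median of -0.22, where 18.2% of all genes fell and 23.1% rose. The Bomanin BomS2 had -1.0 (SE 0.19, adjusted p = 0.00228), Listericin -0.80 and the Bomanin BomS6 -0.77. The change differed between the sexes for 3 of 16, in both directions, where 30.3% of all genes did. BomS2 (difference -0.69, SE 0.22, adjusted p = 0.0281) and BomS6 (-0.49, SE 0.10, adjusted p = 0.00153) fell more in females, as BomT2 did. Drsl5 had -0.67 in males and 0.02 in females, a difference of 0.69 (SE 0.08, adjusted p = 1.253e-05).

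Of 13 Toll pathway genes tested in F0 males 5 fell and 0 rose, where 11% of all genes fell and 19.5% rose. Of 14 tested in F0 females 4 fell and 5 rose, where 18.2% of all genes fell and 23.1% rose. SPE, the protease that cuts the Toll ligand, fell in both sexes, by 0.65 in males (SE 0.04) and by 1.02 in females (SE 0.09). The protease gene grass (-0.37 in males, -0.30 in females) and the serpin gene nec (-0.15 in males, -0.54 in females) fell in both sexes too. The kinase gene pll, whose product acts below the Toll receptor, fell in males (-0.47), and the protease gene Hayan fell in females (-0.55). The ligand gene spz rose in females (0.44, SE 0.06). The change differed between the sexes for 8 of 14, where 30.3% of all genes did. The difference was 0.56 for pll, 0.41 for tub, an adaptor gene, and -0.39 for nec.

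Imd pathway genes also moved both ways. In F0 males 6 of 17 fell and 1 rose, and in F0 females 6 fell and 4 rose. Of all genes 30.5% passed in either direction in males and 41.3% in females. Those furthest down were a negative regulator and peptidoglycan-cleaving amidases. pirk, an inhibitor of the pathway, fell by 1.46 in males (SE 0.07) and by 1.83 in females (SE 0.09), and PGRP-SC2, an amidase that degrades peptidoglycan, fell by 0.67 in males and 1.24 in females. PGRP-LB, another amidase, fell by 0.63 in males and 1.13 in females. PGRP-SB1, also an amidase, read 8.56, 9.25, 8.30 and 8.25 in HSD F0 females, against 11.09, 10.49, 10.10 and 11.28 in CD F0 females. Its diets did not overlap (log2 change -2.15, SE 0.29, adjusted p = 0.000378), although its highest array on each diet, HSD replicate 2 and CD replicate 4, was also the highest for Mtk. The change differed between the sexes for 9 of 17 genes, where 30.3% of all genes did. Differences were -1.96 for PGRP-SB1, -0.57 for PGRP-SC2 and -0.51 for PGRP-LB. Rel, the pathway's transcription factor, fell as well, with -0.35 in males and -0.44 in females, and was picked out here after its values were seen. The genes that rose were IKKbeta (0.33), trbd (0.31), key (0.24) and akirin (0.17) in females and Dredd (0.15) in males.

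Whole-fly signals cannot tell fewer cells of a type from less RNA per cell. Among all genes 19.5% rose and 11% fell on HSD in F0 males, and 23.1% rose and 18.2% fell in F0 females. The mean log2 signal of 7 fat body markers ranged over the arrays from 9.92 to 10.0 in HSD F0 males and from 9.95 to 10.03 in CD F0 males, and from 8.81 to 9.0 in HSD F0 females against 9.43 to 9.55 in CD F0 females. In males 3 of the 7 markers rose and 1 fell, and in females 1 rose and 2 fell. The fall included Lsp2, a larval serum protein gene, by 0.98 in males and 3.44 in females. Of 10 hemocyte (blood cell) markers 2 rose and 0 fell in males, and of the 9 tested in females 4 rose and 2 fell. Of 14 midgut enzyme markers 6 rose and 1 fell in males, and 9 rose and 3 fell in females, with mean signals of 10.20 to 10.63 in HSD F0 females and 9.09 to 9.18 in CD F0 females. Their part in the changes of the peptide genes was not tested.

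The second question was whether the diet of the F0 males bore on these genes in descendants that ate the same diet. Of the 7 genes 1 passed in F1 CD-fed males, 2 in F2 CD-fed males and 2 in F2 HSD-fed females, and 0 in the other 5 comparisons. The changes that passed were smaller in size than those of Def, Mtk and AttD on HSD in F0 males. They were also smaller than those of Def (-0.98) and BomT2 (-0.86) in F0 females. They were larger than those of Drs (-0.16) and BomT2 (-0.25) in F0 males. The change was above 0 in 7 of 8 comparisons for Def, in 6 for Drs and BomT2, in 5 for Mtk and Drsl2, in 4 for DptB and in 3 for AttD. Drs stayed between -0.03 and 0.11 in all 8.

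In F1 CD-fed males, Def rose with HSD ancestry, the 1 gene of 7 to pass where 4.51% of 10834 genes did. Its log2 signals were 10.08, 9.98, 9.96 and 9.90 with HSD ancestry, against 9.79, 9.56, 9.74 and 9.74 with CD ancestry. The groups did not overlap (14.9% of genes), and the log2 change was 0.27 (SE 0.06, adjusted p = 0.0332). It no longer passed under 10 of 14 alternatives, among them a single model of all 80 arrays and the removal of any 1 array other than HSD ancestry replicate 3. Without the arrays of replicates 1 and 4 that held female transcripts it was 0.26 (adjusted p = 0.196).

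Those same replicates were the high ones for DptB and Mtk in F1 CD-fed males. DptB read 10.95, 9.60, 9.66 and 10.85 with HSD ancestry, against 10.88, 11.02, 10.54 and 10.60 with CD ancestry. Mtk read 10.84, 9.78, 9.81 and 10.87 with HSD ancestry, against 10.59, 10.66, 10.30 and 10.30 with CD ancestry. Over all arrays neither passed, with log2 changes of -0.49 (SE 0.28) for DptB and -0.14 (SE 0.23) for Mtk. Without the arrays holding female transcripts, which leaves 2 arrays of HSD ancestry, both were lower with HSD ancestry, DptB by -1.13 (SE 0.12, adjusted p = 0.00598) and Mtk by -0.67 (SE 0.11, adjusted p = 0.0297), and 0.534% of genes passed. The part of the female transcripts in the signal of these genes was not tested.

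In F1 CD-fed females 0 of the 7 genes passed (limma, 2 at an unadjusted p under 0.05), where 2.64% of genes did. Both Def and Drsl2 were higher in every array of HSD ancestry, where 11.6% of genes did not overlap and 7.98% were higher without overlap. Def read 10.86, 10.68, 10.75 and 10.72 with HSD ancestry, against 10.42, 10.64, 10.10 and 10.38 with CD ancestry, which put it 0.37 higher (SE 0.10, adjusted p = 0.0838). Drsl2 read 5.83, 5.77, 5.70 and 5.56 with HSD ancestry, against 5.34, 5.37, 5.52 and 5.46 with CD ancestry, a change of 0.29 (SE 0.07, adjusted p = 0.0521). Without CD ancestry replicate 2 the change of Def was 0.45 (adjusted p = 0.0324), and without HSD ancestry replicate 4 that of Drsl2 was 0.34 (adjusted p = 0.0335), and each then passed. The other 5 genes overlapped, with changes from -0.11 to 0.35.

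In F1 HSD-fed flies 0 of the 7 genes passed in either sex (1 at an unadjusted p under 0.05 in each). Among all genes 0% passed in males, with 1276 at an unadjusted p under 0.05, and 4.07% passed in females. The changes of the 7 genes ranged from -0.13 to 0.23 in males and from -0.22 to 0.05 in females. Without the female array holding male transcripts the changes in females ranged from -0.33 to 0.04 and 0 of the 7 passed, where 2.52% of genes did. BomT2 (-0.13, SE 0.05) was lower in every array of HSD ancestry in males, where 7.46% of genes did not overlap. In HSD-fed males of HSD ancestry, replicate 3 was the highest array for Def (9.74), Mtk (11.16), Drs (12.71), Drsl2 (6.19), DptB (10.92) and AttD (7.40), and not for BomT2. For DptB the other 3 arrays of that group read 9.63 to 9.72. In F1 females the ancestry change of Def differed between diets by -0.51 (change in HSD-fed minus in CD-fed flies, SE 0.13, adjusted p = 0.0524), which did not pass, where 2.83% of genes did. It passed without the array holding male transcripts (-0.56, adjusted p = 0.0449), without CD-fed CD ancestry replicate 2 (-0.60, adjusted p = 0.0176) and without HSD-fed CD ancestry replicate 2 (-0.57, adjusted p = 0.0417). In F1 males 0 of the 7 ancestry changes differed between diets (0 at an unadjusted p under 0.05), where 3.75% of genes did. Without the arrays holding female transcripts 0 of the 7 passed either, where 1.21% of genes did, but the difference of DptB was then 1.36 (SE 0.35, adjusted p = 0.0773), against 0.72 (SE 0.43) over all arrays, and that of Mtk was 0.87 (SE 0.27), against 0.34 (SE 0.35). In each such comparison of diets, in F1 and in F2, own diet cannot be told apart from batch label and normalization set.

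In F2 CD-fed males Def rose and Drsl2 fell with HSD ancestry, 2 of 7 genes where 2.98% of 10965 genes passed. Def read 10.26, 10.24, 10.17 and 10.29 with HSD ancestry, against 9.88, 9.48, 9.82 and 9.87 with CD ancestry. The groups did not overlap, where 13.5% of genes did not, and the log2 change was 0.48 (SE 0.09, adjusted p = 0.0245). Drsl2 read 5.0, 5.03, 5.12 and 5.02 with HSD ancestry, against 5.28, 5.45, 5.29 and 5.52 with CD ancestry, again without overlap. Its log2 change was -0.34 (SE 0.07, adjusted p = 0.0342). These Drsl2 signals stood at the 16th and 19th percentile of genes, so whether they stood above background is not known. Without any 1 array of HSD ancestry neither gene passed, and Drsl2 did not pass without CD ancestry replicate 3 either. The adjusted p reached 0.0855 for Def and 0.112 for Drsl2 over all alternatives. Mtk read 10.90, 10.79, 10.67 and 10.83 with HSD ancestry, against 11.67, 10.72, 11.27 and 11.64 with CD ancestry, and its change of -0.53 (SE 0.17, adjusted p = 0.0997) did not pass. Without CD ancestry replicate 2, the lowest of its group, it was -0.73 (SE 0.10, adjusted p = 0.00893) and passed.

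The ancestry change of Drsl2 differed between HSD-fed and CD-fed F2 males. In HSD-fed F2 males it read 5.84, 5.77, 5.76 and 5.74 with HSD ancestry, against 5.25, 5.44, 5.59 and 5.54 with CD ancestry. That is a change of 0.32 (SE 0.08), above 0 where the CD-fed males were below it. The groups did not overlap, where 6.19% of genes did not, but the change did not pass by itself (adjusted p = 0.234). The change in HSD-fed males minus that in CD-fed males was 0.66 (SE 0.10, adjusted p = 0.0031), 1 of 7 genes to pass where 0.917% of 11238 genes did. Without the 3 arrays holding female transcripts, all of them HSD-fed males of HSD ancestry, the difference was 0.65 (SE 0.14) and did not pass (adjusted p = 0.0931). That leaves 1 array of HSD ancestry, assumed to vary like those of the other groups, and that array itself stood 0.38 above the lowest of its set, against 0 to 0.02 for the arrays of CD ancestry. Without CD-fed CD ancestry replicate 2 the difference of Mtk, 0.82 (SE 0.16, adjusted p = 0.021), passed as well.

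In F2 HSD-fed females Mtk and BomT2 rose with HSD ancestry, 2 of 7 genes where 0.79% of 10382 genes passed. Mtk read 10.40, 10.08, 10.34 and 10.20 with HSD ancestry, against 9.81, 9.29, 9.48 and 9.51 with CD ancestry. Its log2 change was 0.73 (SE 0.11, adjusted p = 0.0219). BomT2 read 10.34, 10.55, 10.45 and 10.30 with HSD ancestry, against 10.0, 9.62, 9.82 and 9.89 with CD ancestry, a change of 0.58 (SE 0.09, adjusted p = 0.0219). Neither gene overlapped between ancestries.

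Drsl2 and DptB were also higher in every array of HSD ancestry in these females, so that 4 of 7 genes did not overlap, where 12.6% of genes did not and 3.82% were higher without overlap. Drsl2 read 6.10, 6.29, 6.27 and 5.78 with HSD ancestry, against 5.48, 5.63, 5.63 and 5.54 with CD ancestry, a change of 0.54 (SE 0.10, adjusted p = 0.0548) that passed without HSD ancestry replicate 4 (0.65, adjusted p = 0.0144). DptB read 9.17, 8.87, 8.87 and 8.58 with HSD ancestry, against 8.55, 8.27, 8.50 and 8.29 with CD ancestry, a change of 0.47 (SE 0.12, adjusted p = 0.101). The call of Mtk was lost without CD ancestry replicate 2, 3 or 4 or HSD ancestry replicate 3 or 4, and that of BomT2 without CD ancestry replicate 3 or 4 or HSD ancestry replicate 3, in all under 6 and 4 of 13 alternatives. The adjusted p over all alternatives reached 0.312 for Mtk and 0.150 for BomT2, while the changes stayed between 0.65 and 0.83 for Mtk and between 0.51 and 0.64 for BomT2.

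The other 2 comparisons gave 0 calls among the 7 genes. In F2 CD-fed females (1 gene at an unadjusted p under 0.05), where 1.29% of genes passed, all 7 changes were above 0, from 0.11 for Drs to 0.82 for DptB. DptB read 11.66, 11.58, 9.98 and 10.30 with HSD ancestry, against 9.40, 10.43, 9.02 and 11.40 with CD ancestry, and the groups overlapped (SE 0.50). BomT2 passed without CD ancestry replicate 2 (0.35, adjusted p = 0.0482). In F2 HSD-fed males (2 at an unadjusted p under 0.05), where 0.201% of genes passed, changes ranged from -0.03 for Drs to 0.32 for Drsl2. Without the arrays holding female transcripts they ranged from -0.08 to 0.31, and 0 of the 7 passed. In F2 females 0 of the 7 ancestry changes differed between diets (2 at an unadjusted p under 0.05), where 0.167% of genes did.

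**Figure D3:**
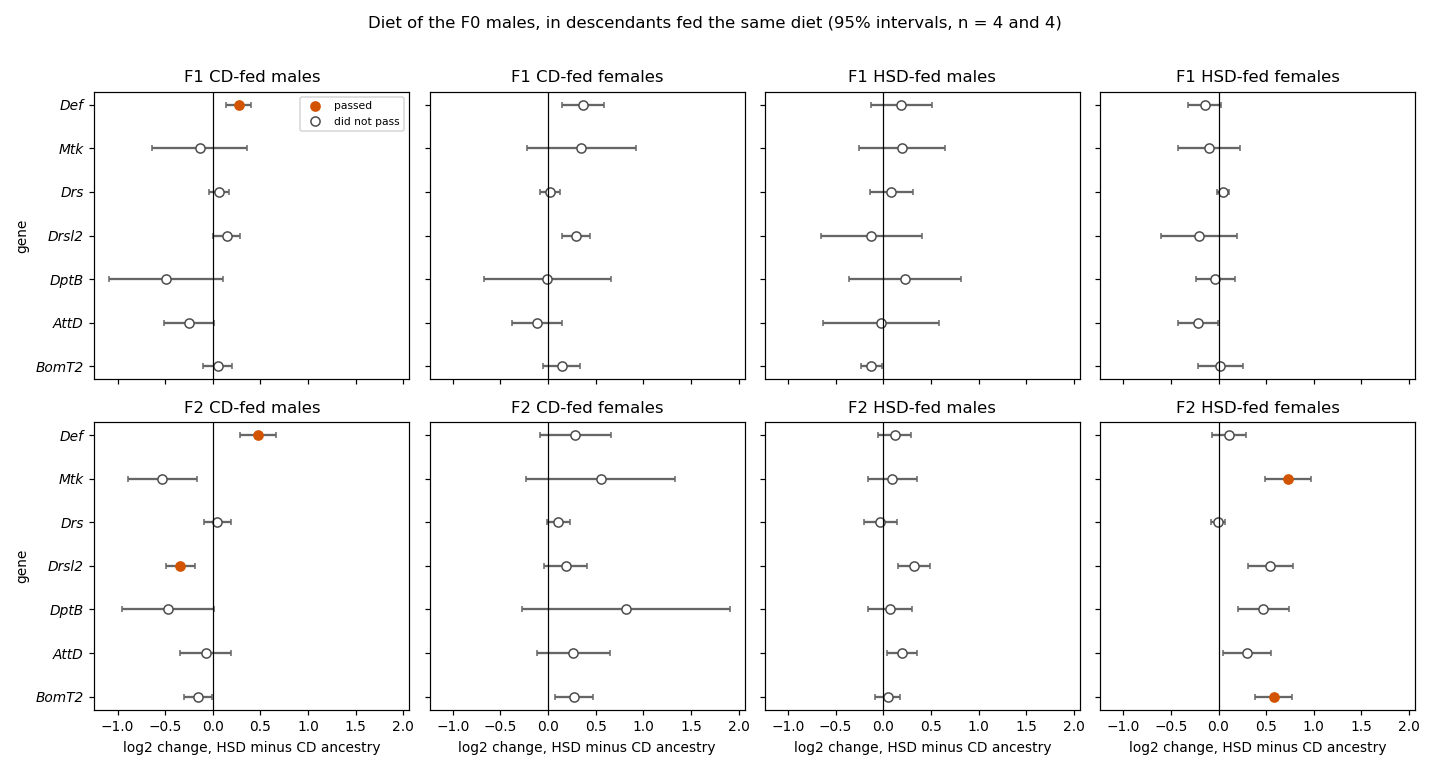
Log2 change with HSD ancestry relative to CD ancestry (horizontal axis, with 95% intervals) of the 7 peptide genes (vertical axis) in the 8 descendant comparisons, 4 arrays per ancestry. Filled points passed an adjusted p of 0.05: Def in F1 and F2 CD-fed males, Drsl2 in F2 CD-fed males, and Mtk and BomT2 in F2 HSD-fed females.

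Among the other peptide genes, 2 of 17 passed with ancestry in F1 CD-fed males, 2 of 15 in F1 CD-fed females, 2 of 16 in F1 HSD-fed females, 1 of 16 in F2 CD-fed females and 1 of 16 in F2 HSD-fed females, where 4.51%, 2.64%, 4.07%, 1.29% and 0.79% of all genes passed, and 0 passed in the other 3 comparisons. Listericin was 0.48 higher in F1 CD-fed females, 0.37 higher in F1 HSD-fed females and 0.66 higher in F2 CD-fed females of HSD ancestry, and 0.33 lower in F1 CD-fed males (log2 change -0.33, SE 0.08). CecB, a cecropin, was also lower in those males (-0.47, SE 0.10). BomBc3 rose by 0.52 in F1 CD-fed females (SE 0.11), Drsl5 had -0.32 in F1 HSD-fed females (SE 0.06), and BomBc2 rose by 0.30 in F2 HSD-fed females, where Mtk and BomT2 rose.

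Of the Imd pathway genes at most 2 of 17 passed in a comparison, where 0% to 4.51% of all genes did. PGRP-SB1 rose by 0.53 in F2 HSD-fed females (SE 0.07, adjusted p = 0.0111). PGRP-SC2 rose by 0.22 in F1 CD-fed males and by 0.48 in F1 CD-fed females, and PGRP-LB by 0.39 in F2 CD-fed males. The inhibitor gene pirk was 0.41 higher in F1 CD-fed females and 0.52 higher in F2 CD-fed females of HSD ancestry, and in F1 HSD-fed females its change was -0.93 (SE 0.14). Of the Toll pathway genes, SPE rose in F1 CD-fed males (0.24, SE 0.05), where 4.51% of all genes passed. The gene pll rose in F2 CD-fed males (0.39, SE 0.07), where 2.98% of all genes passed. In the other 6 comparisons 0 Toll pathway genes passed.

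Cell type markers also changed with ancestry. Among all genes 4.51% passed in F1 CD-fed males, 2.98% in F2 CD-fed males and 0.79% in F2 HSD-fed females. In F1 CD-fed males 3 of 12 testis markers were lower, 3 of 14 midgut markers higher and 1 of 7 fat body markers higher with HSD ancestry. The testis markers averaged 9.79 to 9.95 over the arrays with HSD ancestry, against 9.99 to 10.07 with CD ancestry, and the fat body markers 10.11 to 10.18 against 9.92 to 9.99. In F2 CD-fed males 3 of 12 testis, 2 of 14 midgut and 1 of 7 fat body markers were lower, with testis means of 9.53 to 9.58 with HSD ancestry and 9.64 to 9.76 with CD ancestry. In F2 HSD-fed females 1 of 14 midgut markers was higher and 2 were lower, 1 of 11 ovary markers was lower, and 0 of 7 fat body and 0 of 10 hemocyte markers passed. In the other comparisons 6 of 9 hemocyte markers were lower in F1 HSD-fed females and 5 of 14 midgut markers higher in F1 CD-fed females. In F2 CD-fed females 7 of 11 ovary markers were lower. Of all genes 4.07%, 2.64% and 1.29% passed there in turn. In F2 HSD-fed males 3 of 3 yolk protein genes were higher, but replicates 1, 2 and 4 of HSD ancestry there held female transcripts. The ovary markers in those males averaged 5.15 to 5.86 with HSD ancestry, against 4.65 to 4.72 with CD ancestry. The part of the markers in the changes of the peptide genes was not tested.

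The 7 genes differed widely in how much replicate arrays of 1 group varied. The pooled SD within groups over the 80 arrays was 0.62 log2 units for DptB, 0.52 for Mtk and 0.37 for AttD, against a median of 0.11 over 11738 genes. These stood at the 99.97th, 99.93rd and 99.68th percentile of all genes. Drsl2 (0.21) and Def (0.19) stood at the 97.8th and 97.2nd percentile, BomT2 (0.14) at the 82.7th and Drs (0.08) at the 25.5th.

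**Figure D4:**
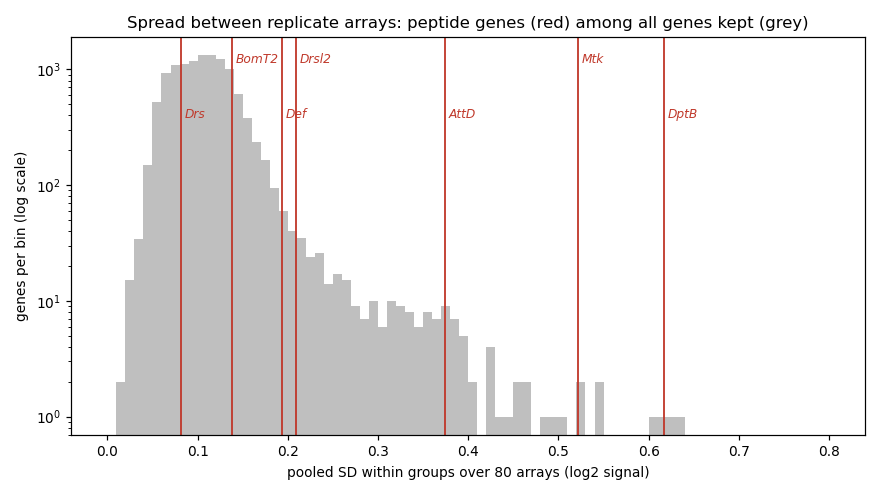
Number of genes (vertical axis, log scale) by pooled SD of log2 signal within the 20 groups (horizontal axis), with red lines at the 7 peptide genes. DptB, Mtk and AttD lie in the far right tail and Drs lies left of the median, and 1 gene beyond an SD of 0.8 is not shown.

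Arrays that were high for 1 of the 7 genes tended to be high for the others, to very different degrees. Deviations from the group means correlated above 0 in all 21 pairs of the 7 genes, with Pearson's r from 0.27 (Drsl2 and BomT2) to 0.92 (Mtk and DptB) over 80 arrays. These values are descriptions, since the arrays share group means and normalization sets. The lowest r was 0.06 over the 16 F0 arrays (Def and Drsl2) and 0.17 over the 64 descendant arrays (AttD and BomT2). No such count was made for pairs of other genes, so the signs are not shown to be particular to these 7. For Mtk and DptB Spearman's rho was 0.86, and r was 0.90 without the 2 arrays farthest from the median of Mtk, HSD F0 female replicate 2 and CD F0 female replicate 4. It was 0.95 over the 16 F0 arrays and 0.88 over the 64 descendant arrays. Def went most closely with AttD (r = 0.77, rho = 0.66), with r of 0.76 without the 2 farthest arrays.

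**Figure D5:**
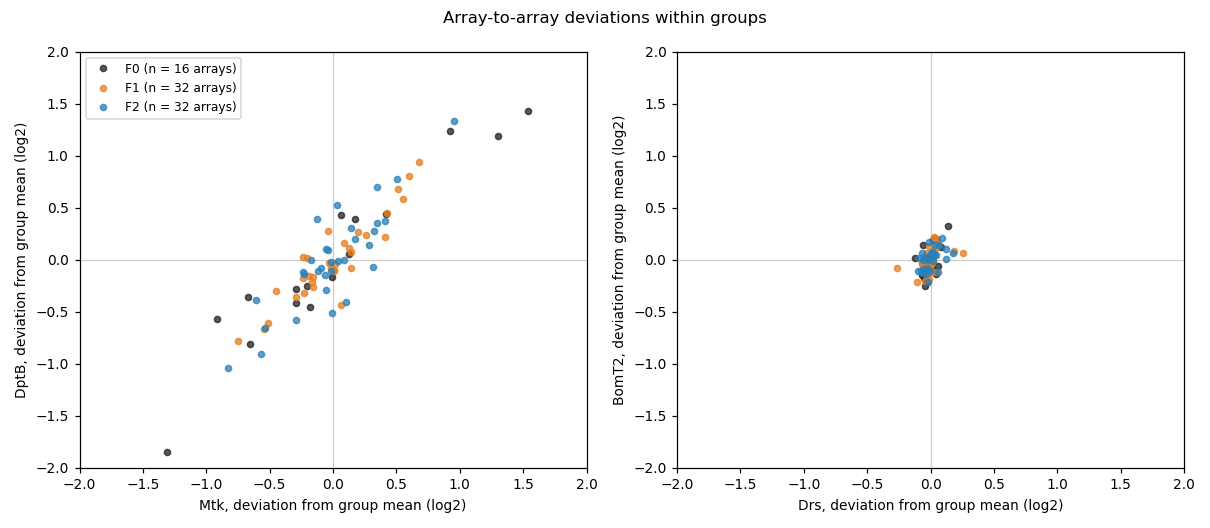
Deviation of each array from its group mean in log2 units for Mtk against DptB (left) and for Drs against BomT2 (right) on the same scale, 1 point per array, 16 F0, 32 F1 and 32 F2 arrays. Mtk and DptB spread along a diagonal over more than 2 log2 units, while Drs and BomT2 stay close to their group means.

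Among 11731 other genes, the 3 whose deviations were most like those of DptB over the 80 arrays were PGRP-SB1 (r = 0.87), edin, an infection-induced gene (0.73), and CecB (0.66). For Mtk they were PGRP-SB1 (0.84), edin (0.71) and BomS2 (0.60). For BomT2 they were BomS5 (0.80), BomS6 (0.73) and lncRNA:CR33942 (0.73). Def had CG34227 (0.56), CecB (0.55) and Mec2 (0.54), and AttD had CG10912 (0.69), CG15043 (0.68) and Fst (0.61). The likest genes of Drs were RpS12 (0.49), CG34198 (0.47) and CG15210 (0.46), and those of Drsl2 were CG32284 (0.47), Nazo (0.47) and CG8353 (0.45), all lower than for the other 5 genes.

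In F1 and F2 the signals of HSD-fed and CD-fed flies were set side by side without a test, because each own diet has its own batch label and normalization set. The median of all genes moved between those sets by 0.41 and 0.42 log2 units in F1 males, 0.33 and 0.34 in F1 females, -0.36 and -0.34 in F2 males and -0.12 and -0.13 in F2 females, in each case for HSD and CD ancestry in turn. In pairs of groups that share generation, sex and ancestry, 22.8% to 25.2% of all genes were lower on HSD in F1 and 59.3% to 81.5% in F2. The share of all genes whose arrays did not overlap is not given here. Def was lower in HSD-fed flies in 8 of 8 such pairs, and in all 8 the arrays did not overlap. In F2 males of HSD ancestry Def averaged 7.86 ± 0.12 on HSD and 10.24 ± 0.05 on CD, and in F2 males of CD ancestry 7.74 ± 0.10 on HSD and 9.76 ± 0.19 on CD (SD, n = 4 each). The difference between diets was smallest in F1 females of CD ancestry, at 9.99 ± 0.12 on HSD and 10.39 ± 0.22 on CD.

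DptB was lower on HSD in 8 of 8 pairs and apart in 7, and the largest difference was -2.27, in F2 males of CD ancestry (8.95 on HSD, 11.22 on CD). BomT2 was lower in 8 of 8, with differences from -1.45 to -0.02 log2 units, and AttD and Drs were lower in 8 of 8 with the groups apart in 5 each. Mtk was lower in 7 of 8 and apart in 3. Drsl2 went the other way, higher on HSD in 6 of 8 pairs, with 6.39 on HSD and 5.42 on CD in F1 females of CD ancestry. Its means in F1 and F2 lay between the 16th and 40th percentile of genes, so whether they stood above background is not known. In F0, where the diets of a sex share a normalization set, its change was 0.02 in males and 0.01 in females. Relative to the median of all genes in the same sets, Def, Mtk, Drs, DptB, AttD and BomT2 were each lower on HSD in 8 of 8 pairs and Drsl2 was higher in 6 of 8. After quantile normalization of all 80 arrays together Drs turned to higher on HSD in 2 of 8 pairs and Drsl2 was higher in 8 of 8, while Def, Mtk, DptB, AttD and BomT2 were lower in 8 of 8. Diet and batch cannot be told apart in these values.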

How the data were processed

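The authors deposited log2 signals for 18952 probe sets on 80 arrays. Per the submitters' processing notes RMA and limma were used, with versions not given in the sources used here. The values show that arrays were normalized in 10 sets of 8. A gene was read from its probe set with 1 symbol and the highest mean over the 80 arrays: 13646 probe sets had 1 symbol, 402 several and 4721 none, and 183 were controls. Symbols come from the platform annotation, updated through RefSeq. From the deposited log2 signals each comparison was fitted over all genes with limma 3.58.1 in R 4.3.3 (two-sided, Benjamini-Hochberg over all genes tested, threshold 0.05). Genes whose mean lay under the 25th percentile of all probe set signals of the fit in every group were left out. Arrays were said to hold opposite-sex transcripts when their mean over sex-limited genes of the other sex lay over 0.5 above the lowest array of the set, with 652 male-limited and 78 female-limited genes defined by a gap of 5 or more log2 units in CD-fed F0 flies. Fits were tested on simulated data. The number of arrays limits the precision, and replicate arrays were compared first, none identical.

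The 7 genes and the gene lists were chosen with earlier results of these data known. They are named throughout, with up to 3 genes per list and F0 comparison and up to 2 per list and ancestry comparison, taken by size among those that passed, and 3 likest genes for each of the 7. Outside this rule Rel, spz and the Imd pathway genes that rose in F0 were added after their values were seen. So were the values of grass and Drsl5 in females, nec and BomBc3 in males and PGRP-LB in females. Lists held 17 other peptide genes, 14 Toll and 17 Imd pathway genes on the array, and markers of fat body (7), hemocytes (10), midgut (14), testis (12), accessory gland (7), ovary (11) and yolk proteins (3). Of the last 4 lists, 8 testis genes rose in F0 males and 0 fell, and 0 accessory gland genes changed there, where 30.5% of all genes passed. In F0 females 1 ovary gene rose and 2 fell, and 1 yolk protein gene fell, where 41.3% of all genes passed. Alternatives were a further quantile normalization, no filter, averaging a gene's probe sets, a single model of the 80 arrays, the replicate number as a block, leaving out each array in turn, and leaving out those with opposite-sex transcripts.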

Additional observations from a re-analysis of the deposited data

Results flagged for a closer look

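Of 140 sets of 4 arrays, 1 for each of the 7 genes in each of the 20 groups, 11 held an array far from the other 3 by Dixon's test at the 95% level, where chance flags about 1 in 20. In HSD-fed F1 males of HSD ancestry it was replicate 3 each time, high for Def (9.74), Mtk (11.16), DptB (10.92) and AttD (7.40). Def was low in replicate 2 of CD-fed F2 males of CD ancestry (9.48). Drs stood apart in HSD F0 female replicate 2 (12.97), HSD-fed F1 male of CD ancestry replicate 1 (12.55), CD-fed F1 female of HSD ancestry replicate 4 (13.34) and HSD-fed F2 male of HSD ancestry replicate 2 (11.81), the last an array that also held female transcripts. Drsl2 was low in CD-fed F1 male of HSD ancestry replicate 2 (5.44) and AttD was high in CD-fed F1 female of CD ancestry replicate 2 (6.51).

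Changes of 2 genes differed between groups by a test of the difference. The change of BomT2 on HSD in F0 females minus that in F0 males was -0.61. The ancestry change of Drsl2 in HSD-fed F2 males minus that in CD-fed F2 males was 0.66.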

How the results depend on the processing

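None of the 14 gene changes that passed reversed under an alternative, and all 14 passed with quantile normalization, with no filter on dim genes and with the mean of all probe sets. Each of the 7 genes has 1 probe set and passed the filter. The last 2 runs therefore left their log2 changes as they were and could move only the SE and adjusted p. Both runs are counted among the alternatives throughout. In 1 fit of all 80 arrays 11 of 14 passed, and with each array left out in turn 101 of 128 passed. The count of the 7 genes that passed became 2 for the F0 difference between sexes, 0 for F1 CD-fed males, 1 for F2 CD-fed males and 1 for F2 CD-fed females in 1 fit of all 80 arrays, and 1 for F1 CD-fed females with the mean of all probe sets. Without the arrays holding opposite-sex transcripts it became 2 for F1 CD-fed males, 1 for the F1 female difference between diets and 0 for the F2 male difference. With each array left out in turn it ranged from 0 to 1 for F1 CD-fed males, F1 CD-fed females, F2 CD-fed females and the F1 female difference, from 0 to 3 for F2 CD-fed males, from 0 to 2 for F2 HSD-fed females, and from 1 to 2 for the F2 male difference. The cause was not tested. Replicate numbers did not pair the arrays (40 same-numbered pairs, r from -0.32 to 0.64, 9 above 0.1). With the replicate number as a block 11 of 14 changes passed, and the count became 0 for F1 CD-fed males, 1 for F2 CD-fed males and 1 for F2 HSD-fed females.

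The count of all genes that passed moved by over 1.5 times in ancestry comparisons. Under the alternatives other than leaving out each array in turn it went from 58 to 932 around 489 in F1 CD-fed males, from 154 to 663 around 271 in F1 CD-fed females, from 0 to 33 around 0 in F1 HSD-fed males and from 112 to 463 around 424 in F1 HSD-fed females. In F2 it went from 133 to 1955 around 327 in CD-fed males, from 109 to 1333 around 132 in CD-fed females, from 5 to 320 around 22 in HSD-fed males and from 4 to 245 around 82 in HSD-fed females. For the difference between diets it went from 135 to 547 around 418 in F1 males, from 23 to 838 around 103 in F2 males and from 0 to 140 around 18 in F2 females. With each array left out in turn the 8 ancestry counts were, in the same order, 151 to 564, 95 to 222, 0 to 2, 187 to 414, 21 to 467, 53 to 464, 8 to 31 and 15 to 103, and those of the 3 differences 178 to 601, 62 to 148 and 0 to 47.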
